A study of Mus musculus with 27 samples.

Results

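The genes described here are 39 transcripts of amino acid supply and tRNA charging, out of 35275 genes in the tables. They are listed as a programme of the transcription factor ATF4, and its control of them in these cells was not measured. They were taken by symbol from a fixed list and fall into 6 roles: Atf4, Ddit3 and Trib3 (3 genes), serine and one-carbon enzymes (6), other amino acid enzymes (6), amino acid transporters (9), brakes and stress outputs (4), and cytosolic tRNA synthetases (11). All 39 were found in the tables. RNA was sequenced from P14 CD8 T cells, whose transgenic receptor recognises the gp33 peptide of LCMV, of 3 genotypes: WT, lin28Tg (a Lin28b transgene, whose protein blocks let-7 maturation) and let-7Tg (a doxycycline-inducible let-7g transgene inserted at Col1a1), the P14 mice being on a Rag2-/- background and 6 to 10 weeks old. Each genotype was sampled as naive cells from lymph nodes, after 12 h with anti-CD3 (2 µg/mL) and anti-CD28 (5 µg/mL), and as cytotoxic T lymphocytes (CTLs) at day 5, made with irradiated splenocytes and anti-CD3 (2 µg/mL), with IL-2 (100 U/mL) from 48 h and then 3 more days. Mice of all genotypes, controls included, were given doxycycline (2 mg/mL in the drinking water, 4 days), and 2 µg/mL doxycycline was added to the cultures when needed. There were 3 libraries in each of the 9 groups, labelled as biological replicates, and nothing in the labels says which mice they came from, so p-values measure the spread between these libraries.

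ATF4 is a transcription factor whose translation increases when the kinases of the integrated stress response phosphorylate eIF2α, as happens when an amino acid runs short and uncharged tRNA is sensed. It binds a composite element with C/EBP proteins and turns on the genes that bring amino acids into the cell, make serine, glycine, asparagine, proline and alanine, and charge them onto tRNA. In T cells this programme is part of the growth response to activation. Its outputs include Trib3, which limits it, and stress outputs such as Chac1. The medium of all cultures held non-essential amino acids and L-glutamine, and ATF4 protein was not measured here, so every value below is an RNA level.

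The transgenic miRNA is shown because the genotypes differ in it. Its mature strand, from RefSeq at chr9:106178846-106178867 on the plus strand of GRCm38.p6, carries the seed (bases 2 to 8) in capitals.
let-7g-5p: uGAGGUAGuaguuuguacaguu
The match to this seed, CTACCTC, was searched on the sense strand of the longest annotated 3′ UTR of each gene (GENCODE M21). It was present in 1 of the 39 genes, the cystine transporter Slc7a11, as the site ctatgtccttaCTACCTCttgatgaagcca (match in capitals). Among the 38 genes tested in CTLs 2.63% held it, against 10.7% of all genes tested in CTLs that had a 3′ UTR. The median 3′ UTR of the 38 was 869 bases long, against 1157 for all tested genes, and absence of these letters from this stretch says nothing about other ways in which let-7 could act.

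Libraries held 13862692 to 23590929 assigned reads, recovered from the deposited FPKM (fragments per kilobase, scaled to the mapped total of the library), so 10 reads on a 2 kb transcript corresponded to 0.212 to 0.361 FPKM. Lin28b was at 9.94 to 67.9 FPKM in the 9 lin28Tg libraries and at most at 0.059 FPKM elsewhere, and Col1a1 was at 9.06 to 62.8 FPKM in the 9 let-7Tg libraries and at most at 4.93 FPKM elsewhere, as labelled. The 5 CD8 T cell markers (Cd8a, Cd8b1, Cd3e, Cd3g, Trac) were present in all groups. In naive cells the summed level of 7 myeloid markers (Lyz2, Csf1r, Itgam, Cd14, S100a8, S100a9, Adgre1) was 171 to 707 FPKM in lin28Tg against 31.0 to 47.7 in WT and 16.0 to 51.8 in let-7Tg, with 6 of 6 tested markers higher in lin28Tg than in WT. NK markers (Ncr1, Klrb1c, Klra8) summed to 23.7 to 72.4 FPKM in naive lin28Tg cells, 10.8 to 23.0 in WT and 9.36 to 20.9 in let-7Tg, and Cd4 was at 9.71 to 56.4, 3.13 to 9.62 and 4.39 to 7.25. In CTLs the myeloid sum was 0.0659 to 3.56 FPKM over the 9 libraries. Fewer cells of a type and less RNA per cell cannot be told apart in these bulk samples.

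Most of these genes were higher in lin28Tg than in let-7Tg CTLs. Of 38 members tested, 31 passed the test (adjusted p under 0.05 over all tested genes, limma), 30 of them higher in lin28Tg and 1 lower, against 21.6% of all 13030 genes called, or 10.8% called higher. The median difference over the members was 0.86 on the log2 scale, on which all differences here are given and which is log2(scaled FPKM + 0.5). In 31 members every lin28Tg library lay above every let-7Tg library, which was so for 20.6% of all genes. The exceptions among the tested members were Slc7a1, Slc7a11, Slc38a1, Slc38a2, Ddit4, Wars and Kars, which did not pass, and Vldlr, which was lower. Cbs had too few reads to test. By library, the median of the 38 members relative to the WT mean was 0.19, 0.38 and 0.30 in lin28Tg CTLs and −0.60, −0.63 and −0.26 in let-7Tg CTLs, while the WT libraries were at −0.090, −0.086 and 0.18. No let-7Tg library reached the lowest lin28Tg library, and replicate 3 was the highest library of WT and of let-7Tg. Same-numbered CTL libraries deviated together in these data, although the labels state no pairing. With the replicate number as a block 33 members passed (36.3% of all genes), Kars and Slc38a1 being added. Leaving out 1 of the 9 libraries left 23 to 31 members called, and 21 of the 31 passed without any 1 library. The 10 that did not were Atf4, Eprs, Lars, Mthfd1l, Phgdh, Pycr1, Sesn2, Slc1a5, Slc7a5 and Vldlr.

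A few markers of other cells moved with genotype in the same CTL libraries. The NK marker Klrb1c was at 60.8 to 158 FPKM in lin28Tg, 8.35 to 40.6 in WT and 2.11 to 4.54 in let-7Tg, while the other NK markers Ncr1 and Klra8 were at or near 0 in all 9. Of the 7 myeloid markers only Itgam had enough reads to test and was higher in lin28Tg, the sum being 1.61 to 3.56 FPKM against 0.0659 to 0.593 in let-7Tg. Of the 4 stromal and vascular markers Pecam1 was lower in lin28Tg (2.51 to 6.62 FPKM against 19.3 to 33.5 in let-7Tg), and Col1a2, Col3a1 and Pdpn were near 0. The 5 CD8 T cell markers summed to 1412 to 1652 FPKM in lin28Tg, 1726 to 1882 in WT and 1817 to 2145 in let-7Tg, with 2 of 5 lower in lin28Tg than in let-7Tg. The part of these markers in the results on the members was not tested.

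**Figure D1:**
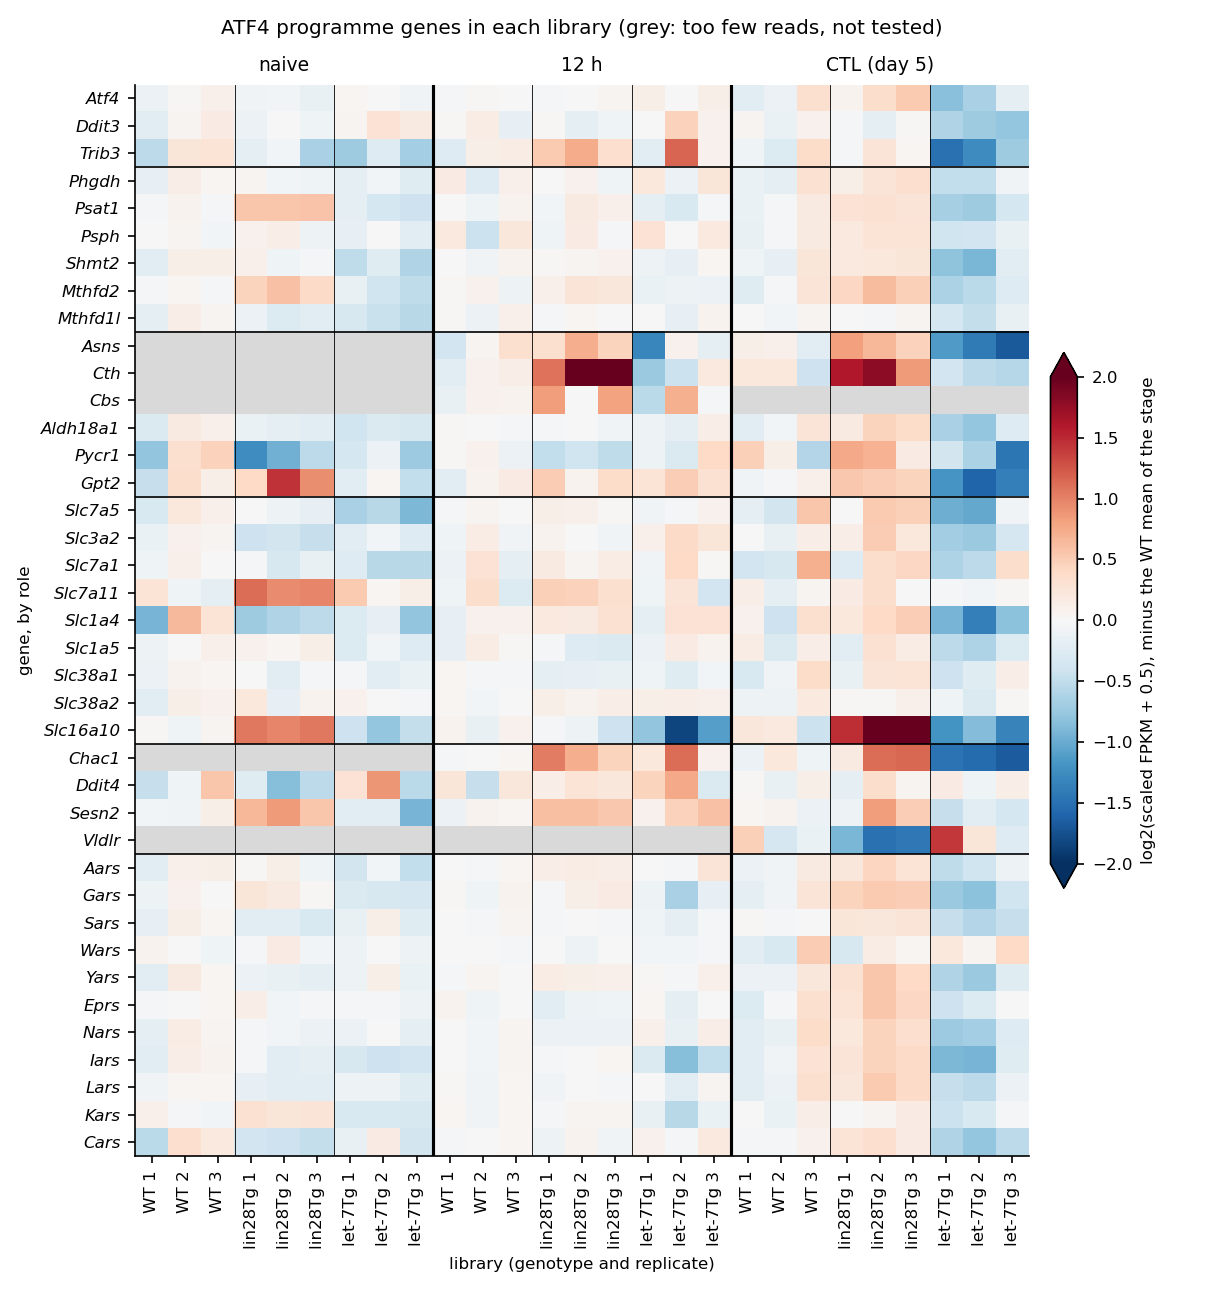
Each cell is one gene (rows, by role) in one library (columns, by stage, genotype and replicate), coloured by log2(scaled FPKM + 0.5) minus the mean of the 3 WT libraries of that stage, with genes that had too few reads in grey. In the let-7Tg CTL columns 35, 36 and 31 of 38 tested rows are below the WT mean (blue), with medians of −0.63 to −0.26. In the lin28Tg CTL columns 27, 35 and 37 are above it (red), with medians of 0.19 to 0.38. The naive let-7Tg columns also lean to blue, with medians of −0.207, −0.082 and −0.325. Single genes such as Slc16a10, Psat1 and Cth stand out at the naive or 12 h stage.

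Atf4 itself (ENSMUSG00000042406, chr15:80255184-80257541, plus strand, GRCm38) was at 158, 168 and 219 FPKM in the WT CTL libraries, at 187, 217 and 248 in lin28Tg and at 106, 120 and 159 in let-7Tg. The lin28Tg libraries all lay above the let-7Tg libraries, and both overlapped the WT range. Atf4 RNA was 0.88 ± 0.20 (SE) higher in lin28Tg than in let-7Tg CTLs (limma adjusted p = 0.0125), and the differences from WT, 0.32 for lin28Tg and −0.56 for let-7Tg, did not pass (limma adjusted p = 0.422 and 0.256). Ddit3, which encodes the stress factor CHOP, and Trib3, a pseudokinase that restrains ATF4, were also higher in lin28Tg than in let-7Tg CTLs. Ddit3 was at 17.0 ± 1.52 FPKM in lin28Tg and 11.7 ± 0.892 in let-7Tg CTLs (SD, n = 3), a difference of 0.62. Trib3 was at 40.7 ± 3.96 and 18.6 ± 5.09 FPKM (SD, n = 3), a difference of 1.24. For both genes WT (18.6 ± 1.31 and 40.2 ± 8.56 FPKM) was close to lin28Tg, the lin28Tg minus WT differences being −0.074 and 0.088. Of the exonic bases of Ddit3, 10.9% are shared with annotated neighbours, among them the synthetase gene Mars on the opposite strand.

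**Figure D2:**
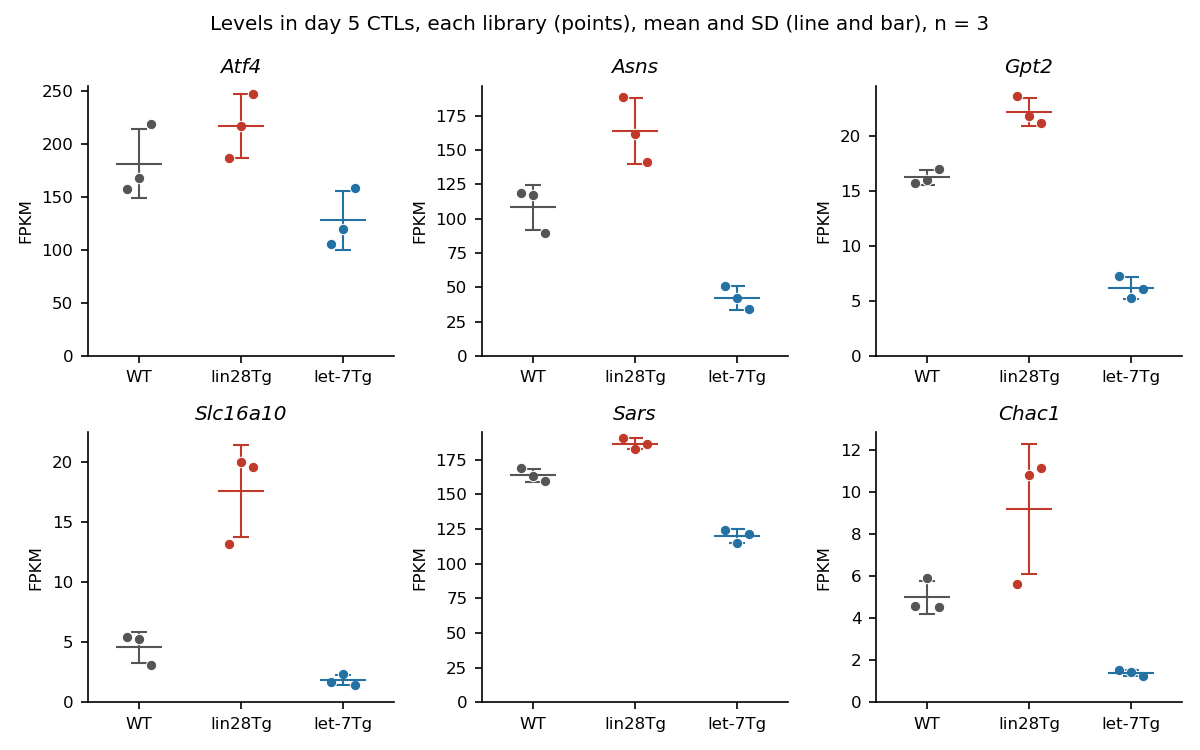
FPKM of 6 members in day 5 CTLs, by genotype on the x axis, with each library as a point, the mean as a line and the SD as a bar (n = 3). Asns, Gpt2, Sars and Slc16a10 step down from lin28Tg to WT to let-7Tg without overlap between groups, and for Atf4 only the lin28Tg and let-7Tg libraries are apart.

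All 6 serine and one-carbon enzymes were higher in lin28Tg than in let-7Tg CTLs, against 10.8% of all genes called higher. They take serine from a glycolytic intermediate (Phgdh, Psat1, Psph) to mitochondrial one-carbon units for nucleotide synthesis (Shmt2, Mthfd2, Mthfd1l). Mthfd2 differed most, at 269 ± 15.8 FPKM in lin28Tg, 198 ± 30.0 in WT and 147 ± 17.2 in let-7Tg (SD, n = 3), a lin28Tg to let-7Tg difference of 0.99 (limma adjusted p = 0.00159). Psat1 and Shmt2 were both 0.86 higher, Phgdh 0.59, Psph 0.56 and Mthfd1l 0.34. Phgdh had the highest level of this role over the 9 groups (mean of 283 FPKM) and Psph the lowest (25.4 FPKM).

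Among the other amino acid enzymes the differences were larger. Asns, which makes asparagine from aspartate and glutamine (chr6:7675169-7693254, minus strand), was at 189, 162 and 141 FPKM in lin28Tg CTLs, at 118, 117 and 89.5 in WT and at 51.2, 41.9 and 33.8 in let-7Tg. The 3 genotypes did not overlap, and the lin28Tg to let-7Tg difference was 2.06 ± 0.16 (SE), or 4.17-fold (limma adjusted p = 0.000154). Gpt2, the mitochondrial alanine transaminase (chr8:85492576-85527560, plus strand), was at 23.6, 21.8 and 21.1 FPKM in lin28Tg CTLs, at 15.7, 16.0 and 17.0 in WT and at 7.24, 5.25 and 6.07 in let-7Tg. These groups did not overlap either, and lin28Tg exceeded let-7Tg by 1.87 ± 0.13 (SE), or 3.67-fold (limma adjusted p = 0.000132). Pycr1 and Aldh18a1, which make proline, were 1.35 and 0.89 higher. Cth, which releases cysteine from cystathionine, was 1.91 higher at a low level (2.05 ± 0.795 against 0.184 ± 0.0511 FPKM, SD, n = 3). Aldh18a1 had the highest level of this role over all groups (98.9 FPKM) and Cbs the lowest (0.236 FPKM), with at most 3 reads of Cbs in any CTL library.

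Of 9 transporters, 5 were higher in lin28Tg than in let-7Tg CTLs, against 10.8% of all genes called higher. Slc16a10 showed the largest difference of any tested member. Slc16a10, a carrier of aromatic amino acids (chr10:40033532-40142258, minus strand), was at 13.1, 20.0 and 19.6 FPKM in lin28Tg CTLs, at 5.40, 5.24 and 3.09 in WT and at 1.73, 2.33 and 1.48 in let-7Tg. Every lin28Tg library was above every WT library and every WT library above every let-7Tg library. The lin28Tg to let-7Tg difference was 3.03 ± 0.24 (SE), or 8.18-fold (limma adjusted p = 0.000186). Slc7a5 and Slc3a2, the light and heavy chains of the large neutral amino acid transporter LAT1, were 1.03 and 0.88 higher. Slc1a4, a carrier of neutral amino acids that include serine, was 1.41 higher, and Slc1a5, a glutamine carrier with the highest level of the role over all groups (463 FPKM), 0.55 higher. The arginine carrier Slc7a1 (0.43 ± 0.35, SE), the glutamine carriers Slc38a1 (0.31 ± 0.20) and Slc38a2 (0.16 ± 0.11), and Slc7a11 (0.20 ± 0.14) did not pass. Slc7a11 was barely expressed, at 0.131 to 0.213 FPKM as a mean of each CTL group.

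The brakes and stress outputs were split. Chac1, which degrades glutathione, was at 9.17 ± 3.09 FPKM in lin28Tg, 5.00 ± 0.780 in WT and 1.41 ± 0.152 in let-7Tg CTLs (SD, n = 3), and the lin28Tg to let-7Tg difference was 2.38 ± 0.25 (SE), or 5.20-fold (limma adjusted p = 0.000475). Sesn2, a leucine-binding inhibitor of mTORC1, was 0.76 higher. Ddit4, another inhibitor of mTORC1 and the most abundant gene of the role over all groups (158 FPKM), was at 206 ± 34.4 FPKM in lin28Tg in CTLs (SD, n = 3) and at 236, 199 and 226 FPKM in let-7Tg, a difference of 0.00081 ± 0.14 (SE) after scaling. Vldlr, a lipoprotein receptor and the least abundant gene of the role (0.520 FPKM), went the other way, at 0.549, 0.198 and 0.231 FPKM in lin28Tg against 5.04, 1.95 and 1.18 FPKM in let-7Tg CTLs, a difference of −1.74 (limma adjusted p = 0.0143).

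Of the 11 cytosolic synthetases, 9 were higher in lin28Tg than in let-7Tg CTLs, against 10.8% of all genes called higher. The median over the 11 was 0.75. Sars, the seryl-tRNA synthetase (chr3:108424865-108445209, minus strand), was at 191, 182 and 186 FPKM in lin28Tg CTLs, at 169, 163 and 159 in WT and at 125, 115 and 121 in let-7Tg. The 3 genotypes were apart and the libraries of each close together, so that a difference of 0.74 ± 0.064 (SE) gave a limma adjusted p of 0.000226. Gars and Iars, for glycine and isoleucine, differed most, by 1.14 and 1.05, and Yars, Cars, Nars, Lars, Eprs and Aars by 0.64 to 0.95. The SE of all 9 called values was 0.064 to 0.19. Wars (−0.26 ± 0.22, SE) and Kars (0.33 ± 0.11) did not pass. Sars had the highest level of the role over all groups (150 FPKM) and Lars the lowest (37.2 FPKM). Reads of Aars are uncertain in part, since 15.1% of its annotated exonic bases are shared with other genes, mainly Exosc6 on the same strand.

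The synthetases of mitochondria, which are encoded by separate genes, were looked at in the same libraries. Of 17 mitochondrial synthetase genes, 3 passed (Wars2 and Rars2 higher and Tars2 lower in lin28Tg), which is 17.6% against 21.6% of all genes, with a median of 0.040. Of the 12 other cytosolic synthetase and scaffold genes, 3 were higher (Mars, Qars and Dars) and none lower, with a median of 0.36 and all 12 values above 0. Their share of 25% called was close to the 21.6% of all genes, of which 10.8% were called higher. Gars and Kars supply both compartments from 1 gene. The 3 lists were set side by side, and the difference between them was not tested.

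**Figure D3:**
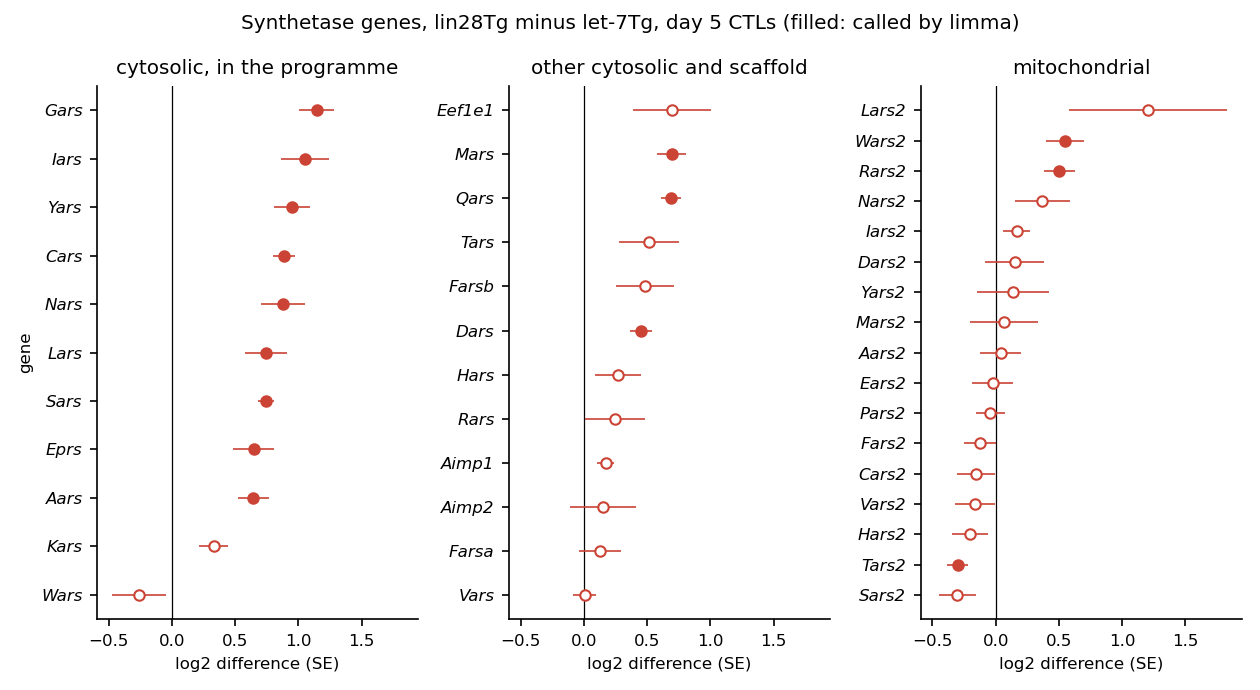
Log2 difference between lin28Tg and let-7Tg day 5 CTLs (x axis, with SE) for each synthetase gene, filled where it passed the limma test, for the 11 cytosolic genes of the programme, 12 other cytosolic and scaffold genes and 17 mitochondrial genes. The programme genes lie between −0.26 and 1.14 with 9 filled, and the mitochondrial genes lie around 0 (median 0.040) with 3 filled.

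The other genes of the pathway were 87 in 5 lists. In the same comparison 26 of 81 tested passed (32.1%, against 21.6% of all genes), 17 higher (10.8% of all genes called higher) and 9 lower in lin28Tg, with a median of 0.15. Of 20 stress response regulators 6 were higher and 2 lower, of 12 tested transporters 2 higher and 1 lower, and of 20 tested enzymes 4 higher and 5 lower. The genes with the smallest adjusted p were Eif4ebp1, an ATF4 target that restrains cap-dependent translation (1.34 ± 0.093, SE), Nupr1, a stress-induced chromatin protein (2.90 ± 0.22), and the arginine carrier Slc7a3 (2.68 ± 0.23), all higher in lin28Tg. On the lower side were Ass1, which remakes arginine from citrulline (−1.85 ± 0.13), Glul, the glutamine synthetase (−0.59 ± 0.078), and Slc36a4, an amino acid transporter of membranes (−0.69 ± 0.14).

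Promoters were examined because many members moved together. The core of the C/EBP-ATF element, TGATGNAA, was searched on both strands (the other strand reads TTNCATCA) in RefSeq windows of 250 bases before to 50 after the transcription start on GRCm38.p6. Windows were found for 31 of the 39 members, and 11 of the 31 (35.5%) held at least 1 match, against 4.51% of 27025 genes with a window. The members were listed beforehand as genes of the ATF4 programme, so this share describes the list and is not a result of these libraries. The 11 were Trib3, Asns, Pycr1, Slc7a11, Slc1a4, Chac1, Vldlr, Aars, Gars, Yars and Iars. By role these were 4 of 7 synthetases, 2 of 5 other amino acid enzymes, 2 of 6 transporters, 2 of 4 brakes and stress outputs, 1 of 3 in the role of Atf4, and 0 of 6 serine and one-carbon enzymes. Among 14 mitochondrial synthetases with a window 0 held it, and among the 8 other cytosolic ones 1 did. In CTLs 9 of 11 members with a match and 15 of 19 tested members without one were higher in lin28Tg than in let-7Tg, against 10.8% of all genes called higher. The medians were 1.14 and 0.74, and the exceptions with a match were Slc7a11 and Vldlr. A match describes letters in this window and not a bound site. There are 5 windows shown, 1 each from the roles with a match, with the match in capitals and each sequence read 5′ to 3′ along its gene.
Trib3, chr2:152344011-152344310, minus strand: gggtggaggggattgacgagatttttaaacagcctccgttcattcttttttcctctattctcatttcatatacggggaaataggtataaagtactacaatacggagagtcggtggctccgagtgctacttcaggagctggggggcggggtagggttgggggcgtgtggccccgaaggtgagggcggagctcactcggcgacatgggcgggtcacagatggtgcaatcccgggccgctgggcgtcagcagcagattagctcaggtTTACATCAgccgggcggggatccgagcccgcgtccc
Asns, chr6:7693160-7693459, minus strand: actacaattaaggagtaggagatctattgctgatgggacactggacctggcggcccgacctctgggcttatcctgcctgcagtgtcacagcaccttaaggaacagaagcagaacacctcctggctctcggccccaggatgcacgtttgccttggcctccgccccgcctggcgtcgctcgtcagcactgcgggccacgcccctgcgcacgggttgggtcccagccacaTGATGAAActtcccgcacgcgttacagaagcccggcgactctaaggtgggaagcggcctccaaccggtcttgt
Slc1a4, chr11:20332664-20332963, minus strand: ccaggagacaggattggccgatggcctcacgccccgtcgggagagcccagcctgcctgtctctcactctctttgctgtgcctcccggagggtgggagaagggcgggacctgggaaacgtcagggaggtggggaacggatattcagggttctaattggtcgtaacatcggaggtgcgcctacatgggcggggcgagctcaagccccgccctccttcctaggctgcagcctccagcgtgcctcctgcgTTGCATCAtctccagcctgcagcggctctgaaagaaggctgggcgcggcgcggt
Chac1, chr2:119350992-119351291, plus strand: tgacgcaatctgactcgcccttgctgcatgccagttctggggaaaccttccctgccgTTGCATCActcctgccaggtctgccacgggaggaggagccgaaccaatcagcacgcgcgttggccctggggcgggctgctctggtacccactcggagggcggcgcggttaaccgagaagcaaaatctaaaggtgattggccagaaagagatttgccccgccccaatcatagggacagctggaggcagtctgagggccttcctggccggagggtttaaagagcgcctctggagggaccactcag
Gars, chr6:55037751-55038050, plus strand: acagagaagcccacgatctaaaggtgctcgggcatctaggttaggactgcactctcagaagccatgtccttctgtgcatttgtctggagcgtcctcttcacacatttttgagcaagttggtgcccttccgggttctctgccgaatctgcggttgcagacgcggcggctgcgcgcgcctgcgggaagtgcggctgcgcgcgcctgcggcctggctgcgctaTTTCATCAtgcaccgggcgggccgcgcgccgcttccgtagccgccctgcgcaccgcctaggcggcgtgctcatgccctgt

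Compared with WT, CTLs of the transgenic genotypes lay on opposite sides for most members, but few single genes passed. The 2 comparisons share the WT libraries. Members also moved together within single WT libraries, with 32 of 38 below the WT mean in replicate 2 and 31 above it in replicate 3. Counts of members above or below 0 are therefore description only. For let-7Tg against WT, 35 of 38 members were below 0 with a median of −0.52, and 6 passed, all lower in let-7Tg (Ddit3, Asns, Gpt2, Chac1, Sars and Cars), against 0.929% of all genes called and 0.353% called lower. In 21 members every let-7Tg library was below every WT library, which held for 7.99% of all genes. With the replicate block, 21 members passed, all lower, against 4.05% of all genes, the added ones including Atf4 (−0.56, limma adjusted p = 0.0146), Trib3 (−1.15, adjusted p = 0.0168), Psat1 (−0.58, adjusted p = 0.0199), Slc16a10 (−1.13, adjusted p = 0.0319) and Gars (−0.65, adjusted p = 0.0178). Without the block the count rested on single libraries, being 1 without WT replicate 1, WT replicate 2 or let-7Tg replicate 2, 2 without lin28Tg replicate 3 or let-7Tg replicate 1, and 0 when the lin28Tg libraries were left out of the estimate of spread.

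For lin28Tg against WT, 35 of 38 members were above 0 with a median of 0.30, and 2 passed, both higher in lin28Tg. That share of 5.26% was close to the 4.34% of all genes called (2.03% called higher). They were Slc16a10 (1.90 ± 0.24, SE, limma adjusted p = 0.00636) and Cth (1.42 ± 0.26, adjusted p = 0.0221), Slc16a10 alone being called without WT replicate 1 or lin28Tg replicate 2. With the replicate block 12 members passed (13.4% of all genes), with Atf4 (0.32, limma adjusted p = 0.0271), Asns (0.65, adjusted p = 0.0028), Mthfd2 (0.51, adjusted p = 0.017), Gars (0.49, adjusted p = 0.0181) and Vldlr (−1.28, adjusted p = 0.0116) among them. Asns, Chac1, Gars, Gpt2 and Slc16a10 are also in gene lists that the study drew from these libraries, so their calls are not independent evidence.

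The difference between lin28Tg and let-7Tg cells was itself larger in CTLs than at 12 h. In a model of all 27 libraries, 26 of 39 members passed the test of that change, 25 of them towards a larger lin28Tg to let-7Tg difference in CTLs and 1 (Vldlr) towards a smaller value, against 20.2% of all 14453 genes. Vldlr had at most 1 read in any 12 h library, so its changes from 12 h restate its differences in CTLs. The change was 0.92 for Atf4 (limma adjusted p = 0.00104), 2.10 for Chac1 (adjusted p = 7.45e-05), 1.89 for Gpt2 (adjusted p = 9.82e-05) and 1.94 for Slc16a10 (adjusted p = 0.000112). Of the synthetases, Aars, Gars, Sars, Yars, Eprs, Nars, Lars and Cars passed, by 0.56 to 1.00. Between naive cells and 12 h, 5 members passed, against 13.3% of all genes: Psat1, Mthfd2, Gpt2 and Sesn2, whose lin28Tg to let-7Tg difference became smaller, and Cth, whose difference became larger. Cth had 0 reads in every naive WT and let-7Tg library, so its change rests mainly on the 12 h values. The count was 2 without lin28Tg naive replicate 2 and 3 without let-7Tg naive replicate 3. Against WT, the lin28Tg difference changed in 2 members from naive to 12 h (8.05% of all genes, with 0 without WT naive replicate 2, 1 without WT naive replicate 3, lin28Tg naive replicate 2 or lin28Tg 12 h replicate 3, and 4 without WT naive replicate 1) and in 3 from 12 h to CTL (6.39%), and the let-7Tg difference in 0 from naive to 12 h (0.0761%) and in 4 from 12 h to CTL (1.49%). The 4 were Ddit3, Gpt2, Slc3a2 and Chac1, all towards lower values in let-7Tg, and 9 passed without let-7Tg CTL replicate 3. The 3 of lin28Tg against WT (Slc16a10, Vldlr and Eprs) came down to 1 without any of 8 single libraries and were 6 without WT CTL replicate 3.

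**Figure D4:**
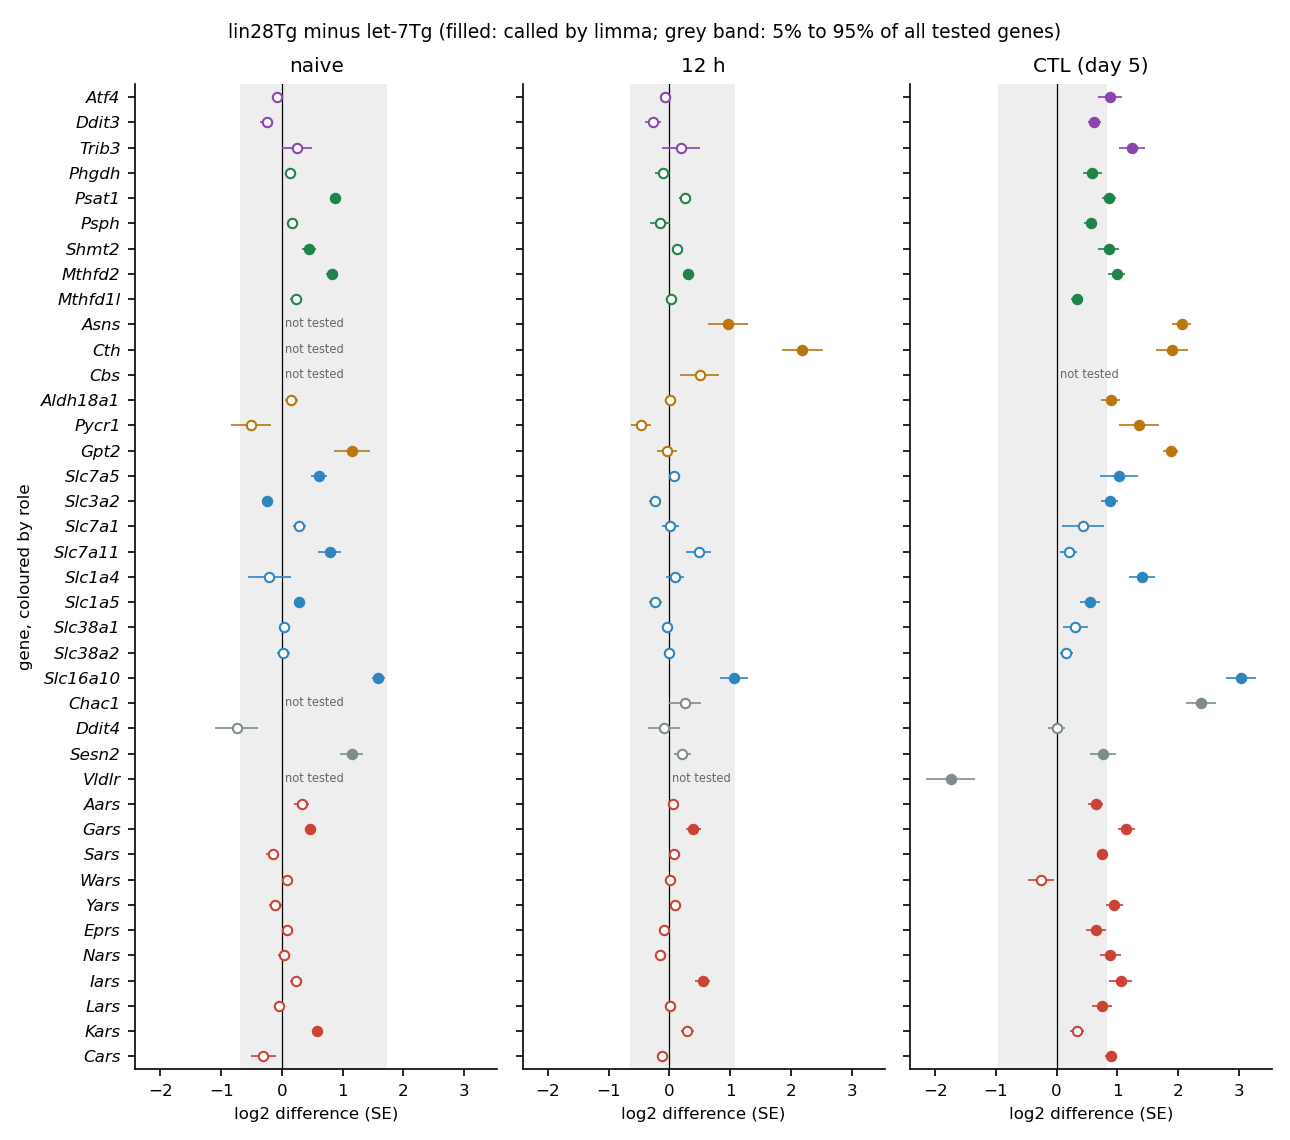
Log2 difference between lin28Tg and let-7Tg (x axis, with SE) for each member (rows, coloured by role) at the 3 stages, filled where it passed the limma test, over a grey band that spans 5% to 95% of all tested genes. At 12 h 6 points are filled, at the naive stage 12 and in CTLs 31, and Slc16a10 is filled at each stage (1.58, 1.07 and 3.03).

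At 12 h few members separated the genotypes. Of 38 tested, 2 passed for lin28Tg against WT, both higher (8.49% of all genes called, 6.1% higher), 2 for let-7Tg against WT, both lower (3.24% called, 1.87% lower), and 6 for lin28Tg against let-7Tg, all higher (30.8% called, 16.3% higher). Cth was at 3.48, 8.55 and 8.0 FPKM in lin28Tg, at 1.07, 1.47 and 1.51 in WT and at 0.597, 0.930 and 1.58 in let-7Tg. Every lin28Tg library was the higher, by 1.86 ± 0.33 (SE) over WT (limma adjusted p = 0.00945) and 2.19 ± 0.33 over let-7Tg (adjusted p = 0.00146). Slc16a10 was at 12.8, 6.43 and 10.1 FPKM in let-7Tg, below all WT (23.5, 20.6 and 23.7) and lin28Tg libraries (22.7, 21.1 and 17.0). It was 1.24 lower in let-7Tg than in WT on the log2 scale (a difference of −1.24 ± 0.23, SE, limma adjusted p = 0.0290). Iars was at 204, 147 and 174 FPKM in let-7Tg, below WT (247, 244 and 255) and lin28Tg (251, 249 and 257), a difference of −0.54 from WT (adjusted p = 0.0455). Mthfd2 was at 245, 266 and 262 FPKM in lin28Tg, 224, 238 and 205 in WT and 203, 223 and 201 in let-7Tg, and was 0.31 ± 0.066 (SE) higher in lin28Tg than in let-7Tg (adjusted p = 0.00703). The other calls were Sesn2 for lin28Tg against WT (0.59) and Asns (0.97), Cth, Slc16a10, Gars (0.40) and Iars (0.55) for lin28Tg against let-7Tg. Those of Asns and Gars were lost when 1 library was left out. Atf4 was at 204, 218 and 208 FPKM in WT, 210, 213 and 219 in lin28Tg and 228, 223 and 225 in let-7Tg, with no call. The calls against WT were lost in part when 1 library was left out: for lin28Tg the count was 0 without lin28Tg replicate 2 and 1 without any of the other lin28Tg or WT libraries, and for let-7Tg it was 0 without any WT library, lin28Tg replicate 2 or let-7Tg replicate 3 and 1 without lin28Tg replicate 1 or 3. Without let-7Tg replicate 2, in which Trib3 (4.41 FPKM against 1.25 and 1.64) and Chac1 (1.48 against 0.501 and 0.417) stood apart, 11 members passed for lin28Tg against let-7Tg. At 12 h the summed myeloid markers were 6.12 to 13.2 FPKM in lin28Tg, 2.69 to 7.37 in WT and 0.505 to 4.01 in let-7Tg. The globin gene Hbb-bs was at 31.9 to 307 FPKM in lin28Tg, 11.9 to 52.5 in WT and 0.227 to 3.38 in let-7Tg, and both Hba-a1 and Hbb-bs were lower in let-7Tg than in WT and than in lin28Tg. Cd3e, Cd3g and Trac were lower in lin28Tg than in let-7Tg, and Cd3e and Trac lower than in WT, the sum of the 5 CD8 T cell markers being 1239 to 1545 FPKM in lin28Tg, 1847 to 1925 in WT and 1668 to 2122 in let-7Tg. The part of these markers in the 12 h results was not tested.

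In naive cells some members differed between genotypes, among many other genes. Of 34 tested, 8 passed for lin28Tg against WT (34.9% of all genes called), 7 of them higher (19% of all genes called higher), and 12 for lin28Tg against let-7Tg (44.2%), 11 of them higher (23% of all genes). Slc16a10 was at 20.2, 19.5 and 21.2 FPKM in lin28Tg, at 9.62, 8.69 and 9.66 in WT and at 7.16, 5.32 and 6.87 in let-7Tg, so that the groups did not overlap. It was 1.03 ± 0.11 (SE) higher in lin28Tg than in WT (limma adjusted p = 0.000243). Psat1 was at 45.3, 45.8 and 47.6 FPKM in lin28Tg, 29.7, 31.3 and 28.9 in WT and 27.3, 23.9 and 23.4 in let-7Tg, again without overlap. The difference from WT was 0.56 ± 0.071 (SE, adjusted p = 0.000634). Mthfd2 was at 68.6, 76.7 and 68.0 FPKM in lin28Tg, 48.8, 50.4 and 47.6 in WT and 46.0, 37.9 and 35.9 in let-7Tg, a difference from WT of 0.47 (adjusted p = 0.00458). Kars, for lysine, was at 78.0, 75.5 and 78.4 FPKM in lin28Tg, 66.3, 59.5 and 58.5 in WT and 52.0, 50.8 and 51.7 in let-7Tg. It was the one synthetase called against WT in both directions, 0.27 higher in lin28Tg (adjusted p = 0.00644) and lower by 0.30 in let-7Tg (a difference of −0.30, adjusted p = 0.0456). Atf4 was at 68.8, 74.8 and 78.6 FPKM in WT, 71.7, 73.8 and 70.8 in lin28Tg and 79.5, 75.8 and 73.9 in let-7Tg, with no call. The study itself names Kars and Slc16a10 from these naive libraries, so both are described and not offered as independent.

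The other naive calls for lin28Tg against WT were Gpt2 (0.92), Slc7a11 (1.01) and Sesn2 (0.69), all higher, and Slc3a2 (−0.42), lower. For lin28Tg against let-7Tg, Gars (0.46), Shmt2 (0.45), Slc7a5 (0.61) and Slc1a5 (0.27) were called besides, and Slc3a2 was again lower (−0.24). Slc16a10, Mthfd2 and Gars were the members called between lin28Tg and let-7Tg at all 3 stages, although the 12 h call of Gars was lost when 1 library was left out. For let-7Tg against WT, Kars and Slc7a5 (−0.70) passed, both lower, against 0.934% of all genes called and 0.633% called lower, and 30 of 34 members were below 0 with a median of −0.21. Both calls were lost without any single library other than WT replicate 1. That library had 30 of 34 members below the WT mean, and without it 13 members passed for lin28Tg against WT. In naive lin28Tg replicates 1, 2 and 3 the summed myeloid markers were at 171, 707 and 363 FPKM. Of the 8 members called against WT, the levels of Slc16a10, Psat1, Mthfd2 and Kars are given above. In the same order Sesn2 was at 5.22, 6.11 and 5.02 FPKM and Gpt2 at 0.874, 2.38 and 1.54. Slc3a2 was at 50.6, 53.2 and 51.0 FPKM and Slc7a11 at 1.40, 1.20 and 1.28. Whether these levels follow the marker sum was not tested.

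Further markers moved with genotype in naive cells. The globin gene Hba-a1 was at 267, 537 and 131 FPKM in lin28Tg, 76.8, 64.1 and 41.8 in WT and 2.16, 0 and 0.121 in let-7Tg. Hba-a1, Hbb-bs and Alas2 were all higher in lin28Tg than in let-7Tg, Hba-a1 and Alas2 were higher in lin28Tg than in WT, and Hba-a1 was lower in let-7Tg than in WT. Of the 3 stromal and vascular markers tested, Col1a2 (0.703 to 2.40 FPKM in lin28Tg) and Col3a1 (1.25 to 5.32 FPKM) were higher and Pecam1 (38.2 to 38.5 FPKM) was lower in lin28Tg than in WT and than in let-7Tg. Of the 5 CD8 T cell markers 3 (Cd3e, Cd3g and Trac) were lower in lin28Tg than in WT and than in let-7Tg, the sum of the 5 being 2904 to 3204 FPKM in lin28Tg, 3896 to 4558 in WT and 3908 to 4461 in let-7Tg. The part of these markers and of the myeloid and NK markers in the naive results on the members was not tested.

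From naive cells to 12 h most members rose in every genotype, a change that describes stage and culture together. In WT 34 of 39 members passed (32 higher and 2 lower), against 71% of all genes called and 35.7% called higher. In lin28Tg 34 passed (31 higher and 3 lower), against 73.5% called and 34.9% called higher. In let-7Tg 37 passed (34 higher and 3 lower), against 69.3% called and 34.4% called higher. Atf4 went from a mean of 74.0 FPKM in naive WT cells to 210 FPKM at 12 h, a difference of 1.75. The 11 synthetases all rose in each genotype, with a median of 1.85 in WT and values from 0.94 (Sars) to 2.24 (Kars). Psat1 rose by 2.94 in WT, Slc7a5 by 2.43 and Mthfd2 by 2.42. Asns had 0, 0 and 1 reads in the naive WT libraries, Cth 0 in all 3 and Chac1 at most 3, and at 12 h their means in WT were 7.06, 1.35 and 0.367 FPKM. Ddit4 fell by 4.47 in WT, from a mean of 260 to 9.24 FPKM, and Ddit3 fell by 0.36.

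From 12 h to CTLs more members were called lower than higher in each genotype. In WT 31 members passed (10 higher and 21 lower), against 67.5% of all genes called, 33.1% higher and 34.4% lower. In lin28Tg 26 passed (11 higher and 15 lower). That share of 66.7% was close to the 66.3% of all genes called, 32.8% higher and 33.5% lower. In let-7Tg 32 passed (6 higher and 26 lower), against 67.1% of all genes called, 34% higher and 33.1% lower. Atf4 changed by −0.38 in WT (limma adjusted p = 0.0149), −0.97 in let-7Tg (adjusted p = 1e-06) and −0.048 in lin28Tg, where it did not pass. All 11 synthetases were called lower in let-7Tg, with a median of −1.02. In WT 10 were called lower and all 11 were below 0, with a median of −0.78. In lin28Tg 7 were called lower and 0 higher, with 9 below 0 and a median of −0.31. Ddit4 returned to 202 FPKM in WT CTLs, and Asns, Gpt2, Trib3 and Chac1 rose in every genotype, Asns by 3.72 in WT, 3.89 in lin28Tg and 2.83 in let-7Tg. Slc16a10 fell by 2.37 in WT and by 2.22 in let-7Tg, and in lin28Tg the value of −0.28 did not pass. Stage cannot be told apart from the culture that goes with it, since 12 h cells and CTLs were stimulated differently.

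**Figure D5:**
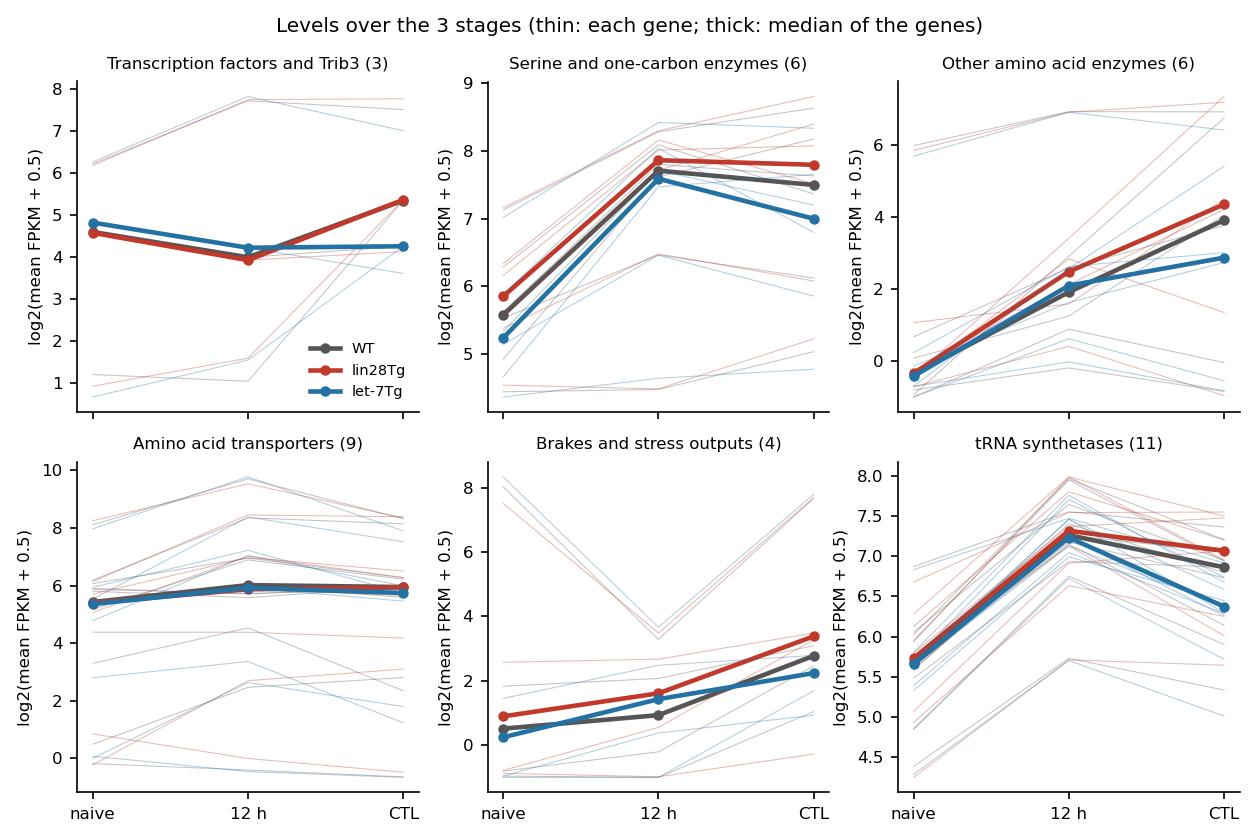
Level as log2(mean FPKM + 0.5) on the y axis at the 3 stages on the x axis, for each member (thin lines) and the median of each role (thick lines), by genotype. The median of the 11 synthetases is highest at 12 h in all genotypes, and in CTLs the let-7Tg median lies below WT and the lin28Tg median above it.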

How the data were processed

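RNA from 27 samples of P14 CD8 T cells was extracted and sequenced by a service provider. Per the submitters' processing notes, reads were aligned with TopHat2 2.0.9 and Bowtie2 2.0.6 to mouse GRCm38 (mm10), counted per gene with HTSeq 0.6.1, and compared with DESeq2. Whether counting used strand is not given in the sources used here. The authors deposited FPKM per gene and library in 3 tables, 1 per stage, made by dividing by gene length and the library total, with no further scaling between libraries. A further 35 columns of each table hold group read counts and the authors' own comparisons (fold changes, p-values, clusters) and were not used.

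All 462839 FPKM values above 0 could be returned to whole reads (tolerance 0.02 reads), which gave each library's depth. FPKM is not a count, so limma 3.58.1 (R 4.3.3, empirical Bayes with a trend) was applied to log2(FPKM + 0.5) after scaling by a trimmed mean of ratios (30% of ratios and 5% of levels trimmed). A gene was tested if at least 3 libraries reached the level of 10 reads at median depth and its reads summed to 15 or more. Each stage was fitted on its 9 libraries, and stages and changes of differences on all 27. P-values were adjusted by Benjamini-Hochberg over all tested genes, with 0.05 as threshold. Log2 differences understate the change of low genes because of the pseudocount. One length per gene entered the FPKM (907 bases for Phgdh, whose annotated exons span 2486), so levels of different genes are approximate. The script was tested on simulated data. Python 3.11.15 (pandas 2.3.3, numpy 2.4.6) and matplotlib 3.10.9 were used for the rest.

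Same-numbered libraries deviated together in CTLs (correlations of 0.239 to 0.694 over 9 pairs, each above 0.1). Such libraries did so in 2 of 9 naive and 3 of 9 12 h pairs only. The labels state no pairing, so a block on the replicate number rests on these same data and is not a known paired design. Replicates differed by more than counting noise in all 27 pairs within groups (mean chi-square per gene 4.40 to 58.1).

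The members and lists were chosen with earlier results of these data known. Named genes are Atf4, each member called between genotypes or in a change between stages, members the study names, and the highest and lowest of each role. Library values are printed for Atf4 and for the 4 members per stage with the smallest adjusted p (others were added after their values were seen). Alternatives were 2 other scalings, pseudocounts of 0.1 and 1, no filter, a replicate block, voom on the recovered reads, only the 6 libraries compared, and leaving out each library. Sums of 2 marker lists are not reported here.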

Additional observations from a re-analysis of the deposited data

Results flagged for a closer look

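Members are listed here whose difference between genotypes itself differed between stages, by a test of that change (limma on all 27 libraries, adjusted p under 0.05 over all 14453 genes). Values are changes of a log2 difference, later stage minus earlier. The lin28Tg to WT difference changed from naive cells to 12 h by −0.53 for Psat1 and −1.25 for Slc16a10. That difference changed from 12 h to CTLs by 2.10 for Slc16a10, −1.30 for Vldlr and 0.57 for Eprs. The let-7Tg to WT difference changed from 12 h to CTLs by −0.84 for Ddit3, −1.71 for Gpt2, −0.78 for Slc3a2 and −2.03 for Chac1. The lin28Tg to let-7Tg difference changed from naive cells to 12 h by −0.63 for Psat1, −0.52 for Mthfd2, 1.81 for Cth, −1.15 for Gpt2 and −0.92 for Sesn2. From 12 h to CTLs the lin28Tg to let-7Tg difference changed by 0.92 for Atf4, 0.86 for Ddit3, 0.67 for Phgdh, 0.58 for Psat1, 0.68 for Psph, 0.70 for Shmt2, 0.65 for Mthfd2, 1.06 for Asns, 0.85 for Aldh18a1, 1.80 for Pycr1, 1.89 for Gpt2, 0.92 for Slc7a5, 1.09 for Slc3a2, 1.30 for Slc1a4, 0.75 for Slc1a5, 1.94 for Slc16a10, 2.10 for Chac1, −1.77 for Vldlr, 0.56 for Aars, 0.72 for Gars, 0.64 for Sars, 0.83 for Yars, 0.70 for Eprs, 1.00 for Nars, 0.70 for Lars and 0.99 for Cars. Of the 26 members in the last group, 21 passed without any 1 library, and Aars, Asns, Phgdh, Slc1a4 and Slc7a5 did not. Slc16a10 appears in 3 of the 5 lists. Vldlr at 12 h and Cth in naive cells had too few reads to compare genotypes, so their changes rest mainly on the later stage. No explanation was weighed for these changes.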

How the results depend on the processing

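Direction held widely. Over 305 called member values and their 4483 alternative values, 4178 kept the call, 305 did not pass and 0 turned. Over 493 uncalled values and 8585 alternatives, 150 passed, and 1 turned: without scaling between libraries the value for Slc38a2, WT, 12 h against naive, was −0.22 (limma adjusted p = 0.0376). The cause of the moves below was not tested unless the setting itself gives it (fewer samples or more genes tested).

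Counts of members that moved by over 1.5 times were as follows. For let-7Tg against WT in naive cells, 2 became 0 without scaling, without the filter, with the replicate block and with only the 6 libraries compared, and 1 with median of ratios scaling and with voom. At 12 h, lin28Tg against WT went from 2 to 1 without the filter and to 4 with only 6 libraries, and let-7Tg against WT from 2 to 0 without the filter or with only 6 libraries and to 1 with the replicate block. In CTLs, lin28Tg against WT went from 2 to 12 with the replicate block, to 4 with voom and to 1 with only 6 libraries, and let-7Tg against WT from 6 to 21 with the replicate block and to 0 with only 6 libraries. The change of lin28Tg against WT from 12 h to CTLs went from 3 to 1 without the filter, that from naive to 12 h from 2 to 1 with voom, and that of lin28Tg against let-7Tg from naive to 12 h from 5 to 2 with voom. No other call count moved beyond 1.5 times with the block, for which the labels give only a number.

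Leaving out 1 library each gave the following lowest and highest counts. In naive cells these were 6 to 13 for lin28Tg against WT, 0 to 3 for let-7Tg against WT and 10 to 16 for lin28Tg against let-7Tg, at 12 h 0 to 3, 0 to 3 and 4 to 11, and in CTLs 1 to 3, 1 to 9 and 23 to 31. From naive to 12 h they were 32 to 34 in WT, 33 to 34 in lin28Tg and 35 to 37 in let-7Tg, and from 12 h to CTLs 28 to 32, 23 to 25 and 31 to 33. Changes of a difference from naive to 12 h gave 0 to 4 for lin28Tg against WT (0 without WT naive replicate 2), 0 to 0 for let-7Tg against WT and 2 to 6 for lin28Tg against let-7Tg (2 without lin28Tg naive replicate 2), and from 12 h to CTLs 1 to 6, 4 to 9 and 22 to 28. Depth limited the low members most: Asns, Cth, Cbs, Chac1 and Vldlr in naive cells, Vldlr at 12 h and Cbs in CTLs had too few reads to compare genotypes.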
